A study of Mus musculus with 8 samples.

Results

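The immunoglobulin kappa variable (Igkv) segments of the mouse were followed in whole-genome bisulfite sequencing of B and T cells. The members were all genes on chromosome 6 of GENCODE M21 (GRCm38) with a symbol that starts with Igkv, each taken as its body with 500 bases to each side. This gave 160 members of 51229 autosomal genes, of which 100 were annotated IG_V_gene and 60 IG_V_pseudogene. In bisulfite sequencing unmethylated cytosines are converted and methylated cytosines are not, so methylation was read as the percentage of reads left unconverted, with 5-hydroxymethylcytosine counted as methylated. The cells were resting CD43- B cells and naive CD4+CD62L+ T cells from the spleen of C57BL/6J mice of 6 to 8 weeks, an inbred strain, and the labels name no transgene or treatment in any group. Each sample was a pool of several animals. The labels give 4 groups, B cells and T cells of either sex, with 2 samples each but 1 file of CpG values per group. Whether such a file joins its 2 samples is not stated, so each file was used as 1 measurement and no group had replicates. B and T cells could therefore be compared once in females and once in males. The spread came from how far these comparisons disagreed and from a spread shared over all genes.

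A kappa light chain is encoded by a V segment joined to a J segment upstream of the single constant gene Igkc. The RAG recombinase cuts at recombination signals, a heptamer and a nonamer set apart by a spacer, which lie directly behind the 3′ end of each V segment. Segments in the orientation of Igkc join by deletion of the DNA between V and J, and segments in the other orientation join by inversion, which keeps that DNA in the chromosome. Naive conventional T cells keep the kappa locus unrearranged, and kappa V promoters carry an octamer that is bound by Oct transcription factors and is needed for transcription in B cells.

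The members lay between chr6:67555497 and chr6:70704177 (GRCm38), 22.3 to 3170 kb from the start of Igkc (chr6:70726435-70726966, + strand), and 75 of them had the strand of Igkc and 85 the other. They belonged to 20 families by the number in their symbol. The segments are poor in CpGs, with 859 CpGs in the reference over all member regions and 728 of these in all 4 files. In all, 128 members (80 genes and 48 pseudogenes) had at least 3 CpGs listed in all files, which need 5 reads, and were tested, 30 had 1 or 2 such CpGs and 2 had none. The tested members held a median of 5 CpGs (3 to 30), and the median number of CpG reads per member was 56 in B and 73.5 in T cells of females and 61 in B and 67.5 in T cells of males. A near-identical copy (97% identity or more over 90% of the length) was found for 16 members, 13 of them tested, and reads may be shared between such copies.

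The recombination signals and promoter octamers are shown for the segments with the largest methylation differences and for Igkv3-1, the member nearest to Igkc. They were read from the GRCm38 genome on the strand of each segment. In the signals, capitals mark the bases at the heptamer and nonamer positions, and the first base follows the annotated 3′ end of the segment. The signals lay at chr6:68736269-68736296 (- strand, Igkv19-93), chr6:67914053-67914080 (+, Igkv11-125), chr6:68164924-68164951 (+, Igkv11-114), chr6:68990730-68990757 (-, Igkv4-81), chr6:67896643-67896670 (+, Igkv14-126) and chr6:70704178-70704205 (+, Igkv3-1).
Igkv19-93: CACAGTGatacaaatcataACAAAAACC
Igkv11-125: CACAGTGatacaagtcataACATAAACC
Igkv11-114: CACAATGatacaagtaataACATAAACC
Igkv4-81: CACAGTGatacaggctggaACAAAAACC
Igkv14-126: CACGTTGatacaagtaataACATAAACC
Igkv3-1: CACAGTGctccagggctgaACAAAAACC
Igkv19-93, Igkv4-81 and Igkv3-1 matched the consensus heptamer CACAGTG and nonamer ACAAAAACC at every base. Igkv11-125 had 1 mismatch in the nonamer, Igkv11-114 had 1 in each element, and Igkv14-126 had 2 in the heptamer and 1 in the nonamer.

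The octamer ATTTGCAT, in capitals below, was searched in the 250 bases before the start of each member on its own strand. It is shown with its surroundings for Igkv19-93 (chr6:68736844-68736873, -), Igkv11-125 (chr6:67913479-67913508, +), Igkv4-81 (chr6:68991383-68991412, -), Igkv14-126 (chr6:67896075-67896104, +) and Igkv3-1 (chr6:70703475-70703504, +).
Igkv19-93: agatgaagctgATTTGCATgtgctgagatc
Igkv11-125: agtttccagtgATTTGCATgcacacactgc
Igkv4-81: tatatcttgttATTTGCATatttcattttc
Igkv14-126: ggttctcaatgATTTGCATgctctcacttc
Igkv3-1: atactctgcttATTTGCATatgaaataatt
It was found before 72 of 100 Igkv genes (72.0%) and 21 of 60 pseudogenes (35.0%), against 0.947% of all autosomal genes. Its reverse complement ATGCAAAT was present before 2 of the 160 members and 1.10% of all genes. CACAGTG stood directly behind 84.0% of Igkv genes and 36.7% of pseudogenes, against 0.679% of all genes, and the full signal with a spacer of 12 bases (CACAGTGNNNNNNNNNNNNACAAAAACC) behind 30% and 8.33%, against 0.0820%. These matches describe the annotated segments and were not tested for use in recombination or transcription.

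The whole tables were checked first. The autosomal CpGs had a median coverage of 14 to 17 reads and 278275973 to 339923001 reads in total per file, and their overall methylation was 79.5% to 80.7%. Cell identity was checked at promoters (1 kb to each side of the start). For the B cell markers Cd79a and Cd79b, which encode the signalling chains of the B cell receptor, promoter methylation was lower in both B files. That of Cd79a was 10.5% and 17.0% in the female and male B files and 83.4% and 79.3% in the T files, and that of Cd79b was 8.19% and 9.91% against 35.9% and 45.8%. The promoters of 7 of 7 T cell markers such as Cd3e and Lck were less methylated in both T files, with medians of 83.4% and 86.6% in the B files and 12.6% and 14.8% in the T files.

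Methylation was lower in B cells than in T cells at a subset of Igkv segments, most of them genes. A quasi-binomial model of methylated and unmethylated reads, with cell type and sex as terms and a single dispersion prior for all genes, was fitted to all 49551 autosomal genes with at least 3 CpGs. A gene was called where the Benjamini-Hochberg adjusted p was under 0.05 and B and T differed on average by at least 20 percentage points. By this rule 3 of the 128 members (2.34%) were called lower in B cells and 0 higher, where 0.238% of all genes tested were called lower and 0.458% higher. The 3 were Igkv19-93, Igkv11-125 and Igkv11-114, with adjusted p of 0.0377 to 0.0452. Among the 19412 genes that held as many CpGs as the members do, 0.299% were called lower and 0.639% higher. At an unadjusted p under 0.05 there were 33 members (15.9% of all genes), all 33 of them lower in B cells (5.92% of all genes). Without a test, 23 members were lower in B cells by at least 20 points in both sexes (0.381% of all genes) and none was higher by as much (0.676% of all genes). With no minimum difference, 69 members were lower in both sexes (25.9% of all genes) and 27 were higher in both (34.1% of all genes).

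The count of calls depended on the fit. It was 0 without the female T file, 0 without the male T file and 0 with the prior estimated from all genes. Igkv19-93 missed the threshold with any 1 of the 4 files left out (adjusted p = 0.0532 to 0.102), and Igkv11-125 and Igkv11-114 with either T file left out (adjusted p = 0.103 to 0.128). Limma gave 13, Fisher's exact test in each sex 20 and the fit without the sex term 8. The share of all genes called was not counted for these 3 fits, so their counts cannot be set against it. The fits with a file left out had no sex term either, so the 8 of the fit without that term is their nearer comparison. Fisher's test also takes single reads as independent. With a dispersion prior that follows the number of reads, an alternative chosen after seeing the data, it was 20 (0.428% of all genes lower and 0.749% higher). These 20 included the 3, and the other 17 had adjusted p of 0.0617 to 0.213 with the single prior. The body alone gave 1 of 46 members and 2 kb to each side 0 of 160, and none of these fits called a member higher.

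**Figure D1:**
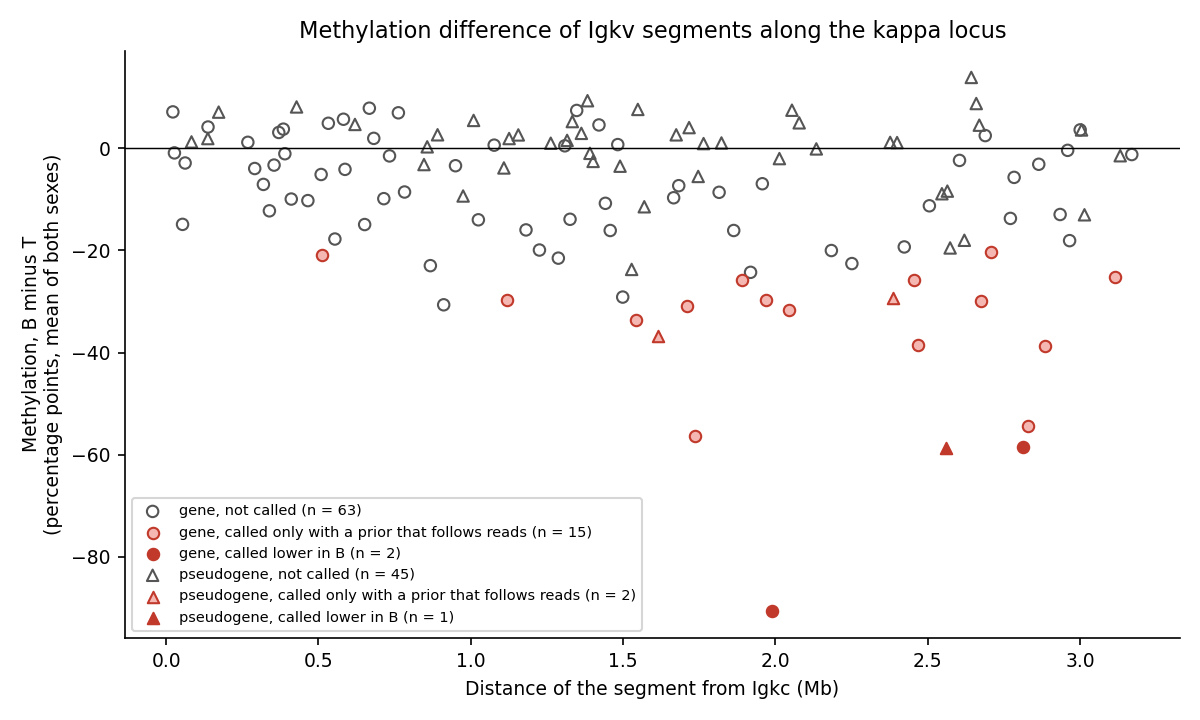
The horizontal axis gives the distance of each of the 128 tested segments from Igkc in Mb and the vertical axis the methylation of B minus T cells in percentage points, averaged over the sexes, with circles for genes and triangles for pseudogenes. Dark symbols are the 3 called segments, pale symbols the 17 called only with the prior that follows reads, and open symbols the others. The largest difference is that of Igkv19-93 at -90.6 points, and 1 of the 20 filled symbols lies within 1077 kb of Igkc.

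Most of the segments with an unadjusted p under 0.05 were genes. They were 27 of the 80 Igkv genes and 6 of the 48 pseudogenes, all lower in B cells, and of the 3 called segments Igkv11-114 is a pseudogene. Of all genes 15.9% passed this threshold in either direction and 5.92% with a lower level in B cells. The median methylation over the genes was 70.7% in B and 82.9% in T cells of females and 71.2% in B and 83.8% in T cells of males, so both B files lay below both T files. Over the pseudogenes the medians were 86.4%, 87.1%, 88.3% and 86.8% in the same order, with no separation of B from T files. Over all genes tested the medians were 83.8% to 84.2%. Whether the B and T difference itself differs between genes and pseudogenes was not tested, since members of 1 file are not replicates.

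Taken over both strands, the differences were smallest in the third of the members nearest to Igkc. The unadjusted p was under 0.05 at 5 of the 43 tested members nearest to Igkc (22.3 to 1077 kb), 10 of the next 43 (1109 to 1971 kb) and 18 of the 42 farthest (1990 to 3170 kb), which held all 3 calls. Of all genes 15.9% passed this threshold, and 5.92% did so with a lower level in B cells. Among the genes alone the counts were 5 of 33, 9 of 23 and 13 of 24. The median of B minus T over these genes was -3.41 points in the nearest set, -16.1 in the middle set and -19.7 in the farthest set. Spearman's rho between distance and B minus T was -0.28 over all 128 tested members and -0.42 over the 80 genes, a description over segments that share 4 libraries and, for neighbours, family and sequence. Distance and orientation went together, since 34 of the 42 farthest members had the strand of Igkc and 31 of the 43 in each of the other sets had the other strand. Within a strand, with genes and pseudogenes pooled, the differences did not grow steadily with distance. On the strand of Igkc the medians of B minus T were 1.59, 2.27 and -15.5 points from the nearest to the farthest set, with an unadjusted p under 0.05 at 2 of 12, 0 of 12 and 16 of 34 members. On the other strand they were -3.41, -13.9 and -3.85 points, with 3 of 31, 10 of 31 and 2 of 8 members. The 12 members of the middle set on the strand of Igkc were those of family 13, all of them pseudogenes. Genes alone were not counted by strand. Distance, orientation and the split into genes and pseudogenes thus cannot be told apart from the counts by strand. The orders of members in the 2 sexes were alike, with a rho of 0.73 between female and male differences over 128 members.

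Members with an unadjusted p under 0.05 were counted by family, where 15.9% of all genes passed this threshold and 5.92% did so with a lower level in B cells. They were 4 of 4 tested members of family 11, 9 of 29 of family 4, 4 of 12 of family 1, 3 of 6 of family 14, 3 of 10 of family 12, 2 of 5 of family 9, 2 of 9 of family 6 and 2 of 10 of family 2, and the single tested member of families 10, 19 and 20. None of the 12 tested members of family 13, all of them pseudogenes, or of the 11 of family 8 was among them, and 1 of the 8 of family 3. Most families hold few tested members, and differences between families were not tested. Family 3, which lies next to the J segments, had a median of 86.4% in B and 87.9% in T cells of females and 86.9% in B and 88.3% in T cells of males.

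The segment with the largest difference was Igkv19-93, the only member of its family (chr6:68736297-68736780, - strand, 1990 kb from Igkc). None of its 34 reads in female B and none of its 38 in male B cells were methylated, against 100% of 30 reads in female T and 81.2% of 32 in male T cells. All B reads were thus unmethylated and most T reads methylated, at 3 CpGs. A count of 0 allows a level of up to 8.82% in the female and 7.89% in the male B file. The mean difference was -90.6 points (adjusted p = 0.0377, quasi-binomial model). Its CpGs lay at 148 bases before the start and inside the first bases of the segment, and are shown here with the CpG in capitals.
Igkv19-93, chr6:68736928-68736929, - strand, 148 bases before the start: gaggttgttaCGctttggttga
Igkv19-93, chr6:68736773-68736774, - strand: ggtcaggagaCGttgtagaaat
Igkv19-93, chr6:68736756-68736757, - strand: gaaatgagacCGtctattcagt

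Igkv11-125 (chr6:67913573-67914052, + strand, 2812 kb from Igkc) was methylated at 15.8% in B and 76.9% in T cells of females and 21.8% in B and 77.6% in T cells of males over 5 CpGs and 76 to 104 reads per file. The difference of B minus T was -61.1 points (females) and -55.8 points (males), and the adjusted p was 0.0452. The related pseudogene Igkv11-114 (chr6:68164457-68164923, + strand) had 34.2%, 89.7%, 23.7% and 85.6% in the same order (adjusted p = 0.0412), so the group of low segments was not made up of intact genes alone.

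Igkv14-126 (chr6:67896172-67896642, + strand) stood at 30.6% in B and 76.1% in T cells of females and 21.3% in B and 84.3% in T cells of males, but missed the threshold (adjusted p = 0.0617). Igkv4-81 (chr6:68990758-68991294, - strand) stood at 30.2%, 83.6%, 30.6% and 90% (adjusted p = 0.0673). In each of these 5 segments both B files lay well below both T files. Over the 20 members called with the prior that follows reads, the mean B minus T difference ran from -90.6 to -20.4 points. Their B files ranged from 0% to 72.7% and their T files from 72.5% to 100%, and the 95% Wilson intervals of B and T were apart in both sexes at 19 of them. These intervals cover counting error only, and the choice of these 20 used the same difference.

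**Figure D2:**
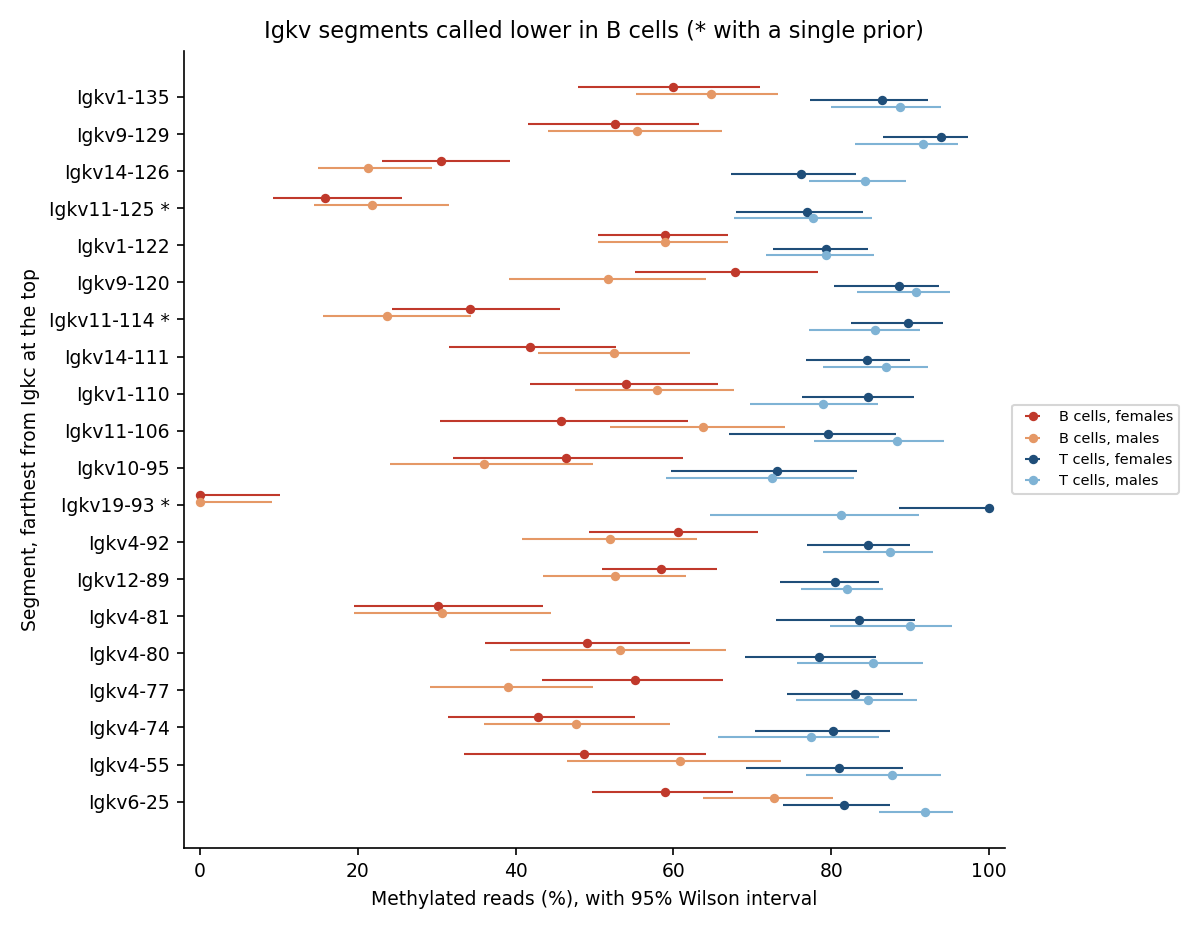
Each line of the vertical axis is 1 of the 20 segments called with the prior that follows reads, farthest from Igkc at the top and with a star at the 3 also called with the single prior, and the horizontal axis gives the methylated reads in percent in each of the 4 files with 95% Wilson intervals as bars. Red and orange points (B cells) lie left of the blue points (T cells) in every segment, with B values from 0% at Igkv19-93 to 72.7% at Igkv6-25.

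No member was called higher in B cells. The 5 segments with the largest differences in this direction were Igkv14-118-1, Igkv4-65, Igkv5-37, Igkv7-33 and Igkv8-22, of which Igkv5-37 and Igkv7-33 are genes and the others pseudogenes. Igkv14-118-1 had 80.0% in B and 70.5% in T cells of females and 83.3% in B and 65.1% in T cells of males over 3 CpGs (adjusted p = 0.546). Adjusted p over the 5 ran from 0.485 to 0.606, and their differences were not larger than the spread the model allows.

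Next to the J segments none of the 4 nearest V segments was called, and they differed among themselves. Igkv3-1 had 79.2% in B and 79.4% in T cells of females and 84.2% in B and 69.7% in T cells of males, and Igkv3-2 had 84.4%, 79.4%, 83.9% and 90.6%. Neither passed the test (adjusted p = 0.805 and 0.985), and the sexes pointed in opposite directions. Igkv3-4 was lower in both B files, at 82.0% and 77.0% against 94.3% and 94.5% in T cells (unadjusted p = 0.0419, adjusted p = 0.289, quasi-binomial model), and Igkv3-5 had an adjusted p of 0.920. At the far end of the locus Igkv2-137 was at 93.2% to 95.5% in all files and the pseudogene Igkv1-136 at 96.1% to 97.8%, while Igkv1-135 had 60.0% in B and 86.4% in T cells of females and 64.8% in B and 88.8% in T cells of males (adjusted p = 0.153). The pseudogene Igkv14-134-1 had 83.0%, 91.8%, 74.6% and 91.8% (adjusted p = 0.263). None of these 4 was called.

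To see where in a segment the difference lay, CpGs were pooled over members in windows of 200 bases from the annotated start and from the 3′ end. In Igkv genes the B cell level was lowest on the promoter side of the start and on the side of the recombination signal. In the 200 bases before the start the level was 39.5% in B and 83.6% in T cells of females and 34.5% in B and 82.0% in T cells of males, over 38 CpGs of 32 genes. Of these CpGs 29 were lower in B cells in both sexes and 2 were higher in both. The share of all autosomal CpGs by this rule was not counted, here or for the counts of CpGs below.

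In the 200 bases that follow the 3′ end and open with the heptamer, the level was 28% in B and 68.2% in T cells of females and 27.5% in B and 68.4% in T cells of males, over 39 CpGs of 32 genes. There 33 CpGs were lower in B cells in both sexes and 0 were higher. The T cell level was also lower here than in the next window outward, where it was 84.6% and 81.4%. That next window had 82.6% and 78.6% in the B files, so B and T files differed little there.

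The lower B cell level went on into the first 200 bases of the genes, with 60.4% and 60.8% in the B files and 80.3% and 79.3% in the T files. Of the 39 CpGs there 25 were lower and 5 higher in B cells in both sexes. In the last 200 bases of the genes the B files had 73.5% and 73.9% and the T files 81.1% and 82.6%, over 134 CpGs. In the outermost window before the start the 4 files ran from 87.2% to 90.7%, with 7 of 62 CpGs lower and 21 higher in B cells in both sexes. In the pseudogenes the levels were 84.6% and 85.1% in B and 92.2% and 90.6% in T cells before the start, and 79.7% and 83.0% in B and 91.5% and 88.3% in T cells past the end. The pseudogenes had their widest gap at 400 to 599 bases from the start, with 73.2% and 69.3% in B and 85.3% and 87.3% in T cells, where 17 of 41 CpGs were lower and 7 higher in B cells in both sexes. This window reaches past the 3′ end of some pseudogenes and so shares CpGs with the window past the end. Those at 495 bases from the start of Igkv11-114 and 533 bases from that of Igkv4-56 are examples.

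**Figure D3:**
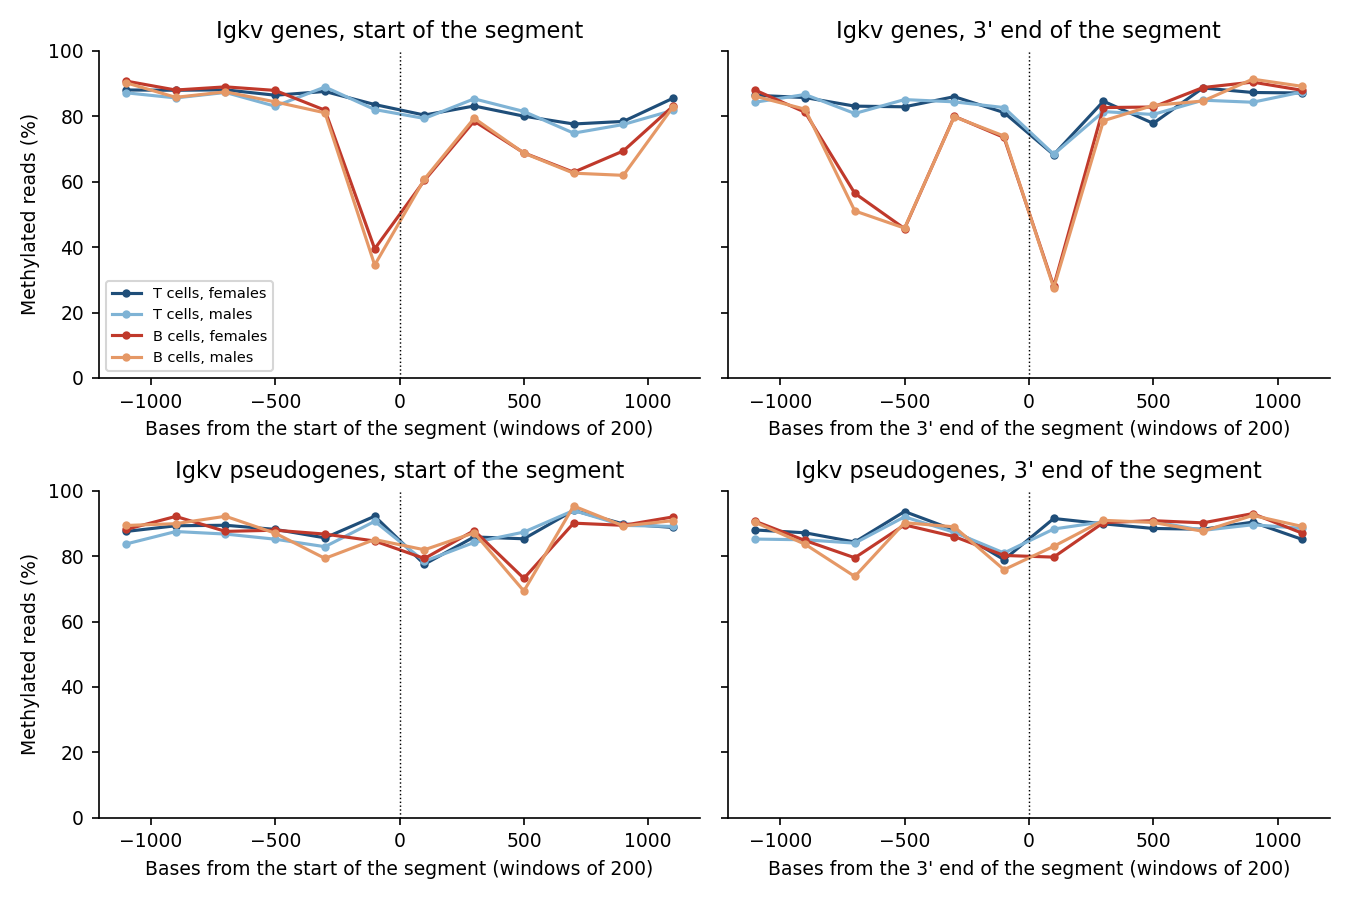
The 4 panels give the methylated reads in percent (vertical axis) in windows of 200 bases by distance from the start (left) and from the 3′ end (right) of Igkv genes (top) and pseudogenes (bottom), with 1 line per file. In the genes the lines of both B files fall to 39.5% and 34.5% before the start and to 28% and 27.5% past the 3′ end, and the lines of the T files stay at 68.2% or above.

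Both places had lower B cell levels in the sets farther from Igkc, which also differ in orientation. Before the start, the genes of the nearest set had 66.7% in B and 80.6% in T cells of females and 59.6% in B and 80.2% in T cells of males (12 CpGs). Those of the middle set had 39.7%, 92.7%, 42.4% and 85.2% (11 CpGs), and those of the farthest set 12.8%, 85.5%, 10.8% and 86.7% (13 CpGs). The B files thus went down across the 3 sets and the T files did not. Past the 3′ end the B files had 46.8% and 50.7% in the nearest set, 31.9% and 21.3% in the middle set and 12.9% and 16.0% in the farthest set, with the T files at 62.4% to 73.9% throughout. No test was made, since each set rests on 9 to 11 genes and the same 4 files.

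The CpGs at the position of the recombination signal were then taken one by one. In all, 11 CpGs in all 4 files lay within the 28 bases past the 3′ end or directly behind them, 5 at genes and 6 at pseudogenes. Of these 5 of 5 at genes and 4 of 6 at pseudogenes were lower in B cells in both sexes, and 0 were higher in both. The CpGs were taken by position, whether or not the bases there matched a signal. At the pseudogene Igkv1-136 the bases there did not match CACAGTG. The 3 at segments whose signal is printed above are shown with the CpG in capitals. In Igkv14-126 the heptamer itself holds a CpG, at base 3 past the 3′ end, and in Igkv11-125 and Igkv11-114 a CpG directly follows the nonamer, at base 29.
Igkv14-126, chr6:67896645-67896646, + strand: agccctcccaCGttgatacaag
Igkv11-125, chr6:67914081-67914082, + strand: aacataaaccCGtgtagaagca
Igkv11-114, chr6:68164952-68164953, + strand: aacataaaccCGtgtggaagca
At the heptamer CpG of Igkv14-126, 4.17% of 24 reads were methylated in female B and 0% of 19 in male B cells, against 35.0% of 20 reads in female T and 53.6% of 28 in male T cells. At the CpG behind the nonamer of Igkv11-125 the levels were 5.26% in B and 45.8% in T cells of females and 4.76% in B and 17.6% in T cells of males over 17 to 24 reads. The corresponding CpG of Igkv11-114 had 0% in both B files and 81.0% and 76.2% in the T files over 11 to 21 reads. Counts of 0 of 19, 11 and 15 reads allow levels of up to 15.8%, 27.3% and 20%. B cells had 0 or 1 methylated read at all 3 CpGs. T cells were intermediate at the first pair, close to B cells in the males of Igkv11-125, and high at the third.

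The other 8 CpGs covered the whole range of levels. At the CpG in the heptamer position of Igkv4-91 (its G at base 5) the B files had 63.6% (females) and 35.7% (males) and the T files 90.9% and 77.3%. At spacer positions the B files had 33.3% and 13.6% at Igkv1-135 (base 17) against 90.5% and 75% in the T files. At Igkv8-26 (base 15) they had 40% and 53.8% against 56% and 61.1%. At a spacer position of the pseudogene Igkv4-56 (its G at base 18) they had 0% and 6.67% against 42.9% and 57.9%. B cell levels at these positions thus ran from 0% to levels as high as those of T cells. The 4 left, all at pseudogenes, had 58.3% to 100% in the B files and 81.8% to 100% in the T files. Each of the 11 rests on 7 to 28 reads per file.

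Segments were also counted by the octamer. The unadjusted p was under 0.05 at 22 of the 53 tested Igkv genes with an octamer and at 5 of the 27 without it (15.9% of all genes, 5.92% with a lower level in B cells). Before the start, the genes with the octamer had 36.5% and 31.7% in the B files and those without it 50% and 44.7%, with 86.5% and 84.8% against 73.4% and 72.9% in the T files. Only 8 CpGs of 8 genes without the octamer stand behind the latter values. Genes with and without the octamer were not matched for distance from Igkc, and the difference between them was not tested. Past the 3′ end the B files had 27.6% and 25.5% with the octamer and 29.2% and 32.1% without it, and the T files 66.7% and 65.9% against 72.1% and 74.3%. A heptamer without mismatch was found at 68 of the tested genes, of which 24 had an unadjusted p under 0.05, and missing at 12, of which 3 had.

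The Igkj segments and Igkc, to which the V segments are joined, were all lower in B cells. Igkj1, Igkj2, Igkj4 and Igkj5 were called (adjusted p = 0.0283 to 0.0470, quasi-binomial model), where 0.238% of all genes were called lower, and Igkj3 and Igkc missed the threshold (adjusted p = 0.0605 and 0.0511). The regions of neighbouring Igkj segments overlap, so these calls are not independent of each other. Igkj1 and Igkj2, whose regions share the same 7 CpGs, had 35.7% in B and 93.3% in T cells of females and 35.5% in B and 98.3% in T cells of males. Igkc had 55.1%, 92.1%, 58.4% and 89.8%. The 4 V segments nearest to them, given above, had B cell levels of 77.0% to 89.6%.

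Depth of reads was used to ask whether V segments were lost from the B cell genome. Coverage of each member was divided by the autosomal median of its file, so that 1 stands for an average autosomal CpG. In bulk DNA a lower depth can mean a segment lost from some cells on both chromosomes or from more cells on 1, and these cannot be told apart. EdgeR's quasi-likelihood test on the summed coverage called a gene at an adjusted p under 0.05 and a log2 ratio of at least 0.25 to either side.

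By this test 0 of 128 members were called lower and 0 higher in B cells, where 0.113% and 0.163% of all genes were. At an unadjusted p under 0.05 there were 6 members, 5 of them lower in B cells (7.21% of all genes in either direction). The only other fit that called a member was that with 2 kb to each side, with 1 lower. The median ratio of B over T was 0.955 in females and 0.929 in males, against 0.983 and 0.992 over all genes, and the median fitted log2 ratio was -0.07. In both sexes 46 members were lower in B cells (32.6% of all genes) and 23 higher (20.9% of all genes). With a median of 56 to 73.5 reads per member, a ratio as close to 1 as these medians was not detectable at a single member.

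Of the 8 members with the lowest ratios 5 were genes of family 4. Igkv4-91 had a depth of 0.757 in B and 1.21 in T cells of females and 0.813 in B and 1.38 in T cells of males. Both B files were below both T files, with B over T ratios of 0.625 and 0.592 (adjusted p = 0.301, edgeR). The ratios of Igkv4-71 were 0.72 and 0.637, those of Igkv4-80 0.692 and 0.668 and those of Igkv4-63 0.729 and 0.648, with adjusted p of 0.604 to 0.683. Igkv12-44, Igkv4-50 and the pseudogenes Igkv14-118-1 and Igkv9-119 completed these 8, with fitted log2 ratios of -0.51 to -0.45. That of Igkv4-50 came mostly from the males, with ratios of 0.917 in females and 0.554 in males. None of the 8 passed the test.

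At the other end Igkv5-45 had a depth of 0.905 in B and 0.471 in T cells of females and 0.667 in B and 0.542 in T cells of males. The B files were higher, with ratios of 1.92 and 1.23 (adjusted p = 0.654, edgeR). Igkv5-45 has a near-identical copy to which reads may be assigned, and any effect of this on the ratio was not tested. Igkv19-93 followed with 1.38 and 1.27, Igkv2-113 with 1.21 and 1.32 and Igkv12-47 with 0.989 and 1.60. Each of these 4 rested on 3 CpGs.

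Over single members, whose reads are few, no relation of depth to the distance from Igkc was seen. The median ratio of the 43 nearest members was 0.981 in females and 0.914 in males, that of the next 43 was 0.961 and 0.909 and that of the 42 farthest 0.900 and 1.01. The sexes went in opposite directions in the farthest set, and Spearman's rho over the 128 members was -0.01. Members in the orientation of Igkc had median ratios of 0.955 and 0.934 and those in the other orientation 0.953 and 0.917, which differ by less than the sexes do. The 4 nearest members had ratios of 0.857 in females and 1.23 in males (Igkv3-1), 1.14 and 1.03 (Igkv3-2), 0.851 and 1.18 (Igkv3-4) and 0.988 and 0.914 (Igkv3-5).

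Bins of 50 kb, which hold many more reads than a segment, showed the depth along the locus. The 63 bins of the V cluster had a median ratio of 0.957 in females and 0.932 in males. In the 2 Mb flanks the medians were 0.984 and 0.986 beyond Igkc and 1.02 and 0.992 beyond the last V segment. No V bin was called at a log2 ratio of 0.25 (0.138% of all bins lower and 0.1% higher), and 6 of 63 were lower at an adjusted p under 0.05 at any ratio (0.569% of all bins lower and 0.176% higher). The 6 became 1 with the autosomal median as library size and 1 of 32 bins at 100 kb, while 3 of 127 V bins of 25 kb were called. The median fitted log2 ratio of the V bins was -0.087, and -0.109 with CpGs listed in any file. At an unadjusted p under 0.05 26 bins were lower and 1 was higher, and 47 of 63 were lower in both sexes. Of the 40 flank bins beyond Igkc 2 were lower and 1 higher at this p, and 20 were lower in both sexes. Of the 40 beyond the last V segment 4 were lower and 0 higher, and 13 were lower in both sexes. The shares of all bins by these rules were not counted.

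The bin that holds the J segments and Igkc was lower in B cells, with ratios of 0.818 and 0.799 and a fitted log2 ratio of -0.31 (adjusted p = 4.01e-11, edgeR). No other bin of the locus or of its 2 Mb flanks was called. In bins of 25 and 100 kb its log2 ratio was -0.24 and -0.20, short of the threshold of 0.25. With CpGs listed in any file it was -0.35. By segment the ratios were 0.63 and 0.56 at Igkj1 and Igkj2 and 0.691 and 0.76 at Igkc, and none was called.

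**Figure D4:**
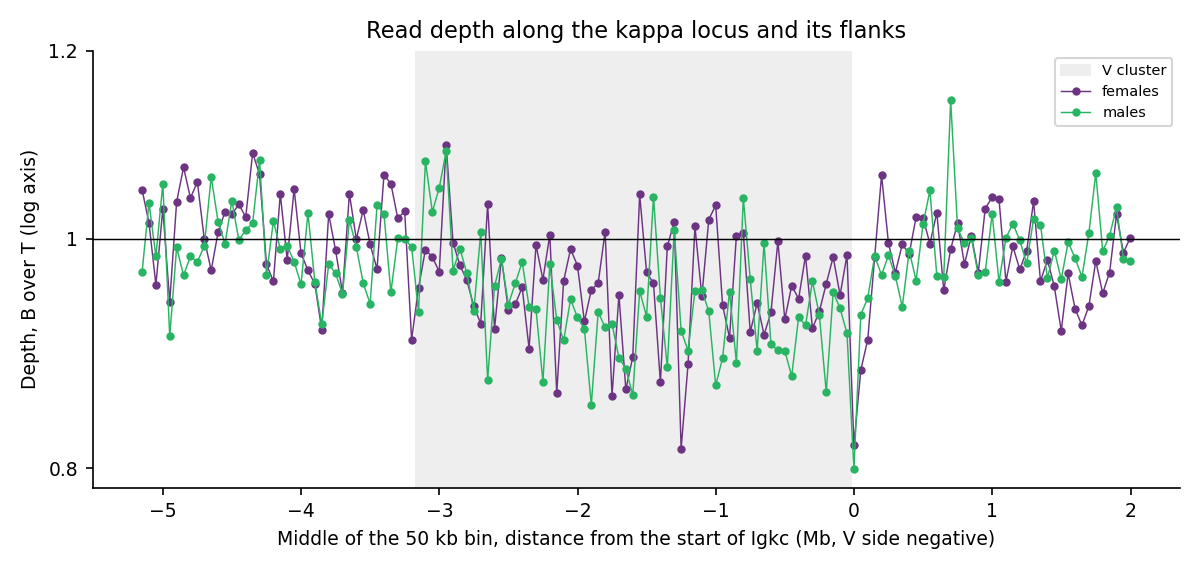
The horizontal axis gives the distance of each 50 kb bin from Igkc in Mb, with the V side negative and the V cluster shaded, and the vertical axis (log scale) the B over T depth ratio in females and males. The points of the V cluster lie mostly below 1 in both sexes, with medians of 0.957 and 0.932. The bin of the J segments and Igkc is at 0.818 in females and 0.799 in males. It is the lowest point in males, and in females a V bin is slightly lower, at 0.815.

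V segments of other loci had median ratios farther from 1. The same fit called 14 of 134 heavy chain Ighv segments lower in B cells, with median ratios of 0.639 and 0.660 (0.113% of all genes were called lower and 0.163% higher). Of the T cell receptor segments 15 of 75 Trav and 11 of 31 Trbv were called higher in B cells, that is lower in T cells, with medians of 1.38 and 1.42 and of 1.68 and 1.68. Igkv, with 0 of 128, had medians of 0.955 and 0.929.

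**Figure D5:**
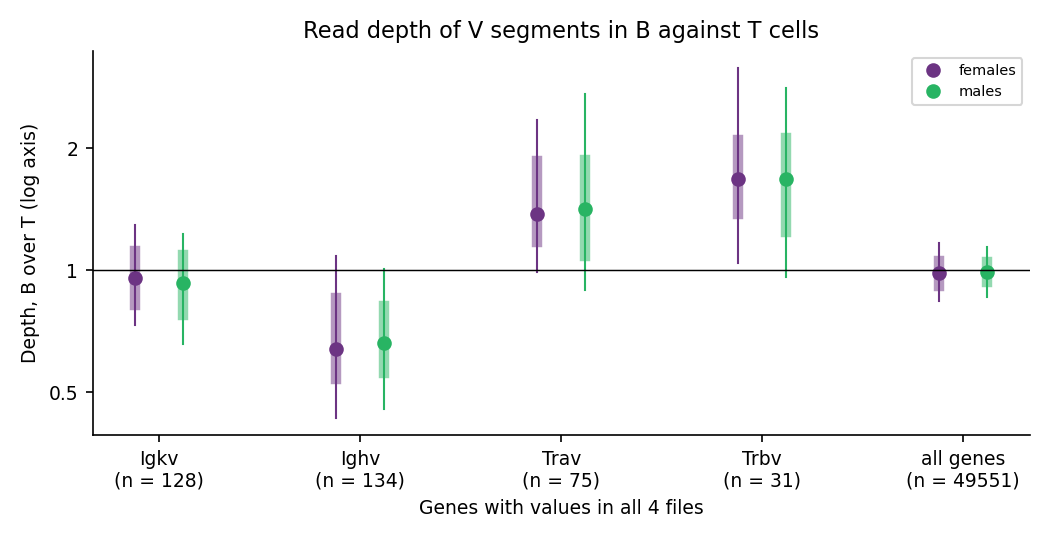
Points give the median B over T depth ratio of the V segments of each locus and of all genes in females and males on a log axis, thick bars the middle 50% and thin lines the 10th to the 90th percentile of segments. The Igkv medians (0.955 and 0.929) lie near those of all genes (0.983 and 0.992), the Ighv medians (0.639 and 0.660) below and the Trav and Trbv medians (1.38 to 1.68) above.

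Methylation of those segments is given for contrast. Of 134 Ighv 0 were called lower and 0 higher in B cells, of 75 Trav 0 lower and 2 higher, and of 31 Trbv 0 lower and 2 higher, where the prior that follows reads gave 6 and 3, 1 and 18, and 0 and 11. At an unadjusted p under 0.05 there were 14 Ighv, 10 of them lower in B cells, 33 Trav with 2 lower and 16 Trbv with 0 lower (15.9% of all genes in either direction, 5.92% lower). Of the 3 tested Iglv segments of the lambda light chain, 1 passed this threshold, with a lower level in B cells, and 0 were called. The prior that follows reads called 1 of them lower, and their median B minus T was -11.6 points. Of the 42 other tested genes inside the V cluster 0 were called, with 3 at an unadjusted p under 0.05, 2 of them lower, and of the 133 in the 2 Mb flanks 1 was called lower and 2 higher. In a list of 30 genes of the recombination machinery and of kappa locus regulators 4 were called lower in B cells and 0 higher (0.238% and 0.458% of all genes). These were Igll1 and Vpreb3, of the surrogate light chain and its relatives, with 52.7% and 54.8% in female B against 92.3% and 86.0% in female T cells, and the transcription factor genes Spib (17.1% against 52.7%) and Irf8 (52.8% against 73.1%), with like values in males. Rag1, Rag2 and Dntt, which encode the recombinase and terminal transferase, were not called (adjusted p = 0.133, 0.430 and 0.788).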

How the data were processed

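Per the labels and the study's methods, whole-genome bisulfite libraries were made from pooled, sorted cells. The submitters' processing notes name Trim Galore, FastQC, Bismark 0.13.1 and the build mm10. The authors deposited, for each CpG with 5 or more reads, the methylation level as a fraction and its coverage, a count of reads over both strands, and no row lay off a CpG of GRCm38. Duplicate removal, and whether a file merges 2 samples, are not given in the sources used here. Duplicates and reads that map to several near-identical segments would make intervals too narrow or blur copies. The fraction was rounded by the authors, and methylated reads were recovered as fraction times coverage.

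Coverage and methylated reads were summed per gene over CpGs in all 4 files. EdgeR 4.0.16 (quasi-likelihood, TMM) tested depth, and a quasi-binomial model with squeezeVar of limma 3.58.1 tested methylation, in R 4.3.3, both with cell type and sex as terms (1 residual degree of freedom) and Benjamini-Hochberg adjustment over 49551 autosomal genes. The p-values rest on how far the B and T difference varied between the sexes and on a dispersion shared over genes. That variation between pools may be partly technical. Both tests were checked on simulated data, with differences planted among all genes tested. The single prior recovered 15 of 67 differences of 20 points, the threshold itself, 39 of 67 of 30 and 56 of 66 of 40. The prior that follows reads recovered 33, 66 and 66 of these. False calls were 0 and 1. The depth test recovered 19 of 67 changes of 1.25-fold and 62 of 67 of 1.5-fold, with 3 false calls. The dispersion prior was a single value estimated from genes with at least 5 expected methylated and unmethylated reads in every file, and a prior with a trend on log2 mean reads was added as an alternative after counts on the real files were known. Near-identical copies were found with blastn 2.17.0. Alternatives changed scaling, test, prior, region, CpGs used, threshold and files, with DESeq2 1.42.0 among the tests. Those with 1 file left out had no sex term.

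Members, lists and tests were chosen with earlier results of these data known. Named members were, among those tested, the 8 with the lowest and 4 with the highest mean log2 depth ratio, the 5 with the largest methylation difference in each direction and the same sign in both sexes, and the 4 nearest to and 4 farthest from Igkc, beside Igkj1 to Igkj5 and Igkc. Igkv6-25, Igkv8-26 and Igkv4-56, the single CpGs and the windows split by distance or octamer were chosen after their values were seen. 1 of the B cell markers is not reported here, and Cd79a and Cd79b were taken as examples after their values were seen.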

Additional observations from a re-analysis of the deposited data

Results flagged for a closer look

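At 12 named segments B and T cells compared in opposite directions in females and males, in depth or in methylation. The difference between the sexes was not tested, since each sex has 1 file per cell type. The B over T depth ratio was 0.989 in females and 1.60 in males at Igkv12-47, 0.857 and 1.23 at Igkv3-1, 0.851 and 1.18 at Igkv3-4, 0.974 and 1.40 at Igkv1-135, 0.887 and 1.09 at Igkv11-125 and 0.765 and 1.09 at Igkv8-22. It was 1.35 and 0.971 at Igkv14-126 and 1.35 and 0.916 at Igkv5-37. In methylation the widest gap was at Igkv4-63, which differed (B minus T) by -5.13 points in females and 19.96 in males over 3 CpGs. Igkv3-1 differed by -0.245 and 14.5 points, Igkv3-2 by 4.96 and -6.75, Igkv3-5 by -6.05 and 0.298 and Igkv4-71 by 3.73 and -2.27. None of these comparisons of B and T cells passed the test over all files. Igkv11-125 was called for methylation, where both sexes went the same way.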

How the results depend on the processing

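With 1 file per group, segments of few CpGs and depths near 15 reads, only large differences could be seen at a single member. Beyond the comparison within each sex no paired analysis was possible, because each group had 1 file. The replicate numbers in the labels differ between all groups and do not show whether B and T cells came from the same animals. The 3 methylation calls became 0 with the prior from all genes, 8 without the sex term, 13 with limma, 20 with Fisher's exact test in each sex, 1 of 46 members with the body alone, 0 of 160 with 2 kb to each side and 0 of 5 with at least 10 CpGs. They became 20 with the prior that follows reads, chosen after seeing the data. The share of all genes called was counted only for the single prior and for the prior that follows reads. Leaving out 1 file at a time gave 0 (without female T or without male T cells) to 3 calls. The fits with 1 file left out had no sex term either. No alternative called a member higher. The median B minus T of -4.04 points moved to -1.45 with at least 10 CpGs, -5.69 without near-identical copies and 0.064 with 2 kb, a change of sign, and lay between -5.80 and -4.00 with 1 file left out. The cause was not tested in any of these.

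For depth, 2 kb to each side gave 1 call in place of 0. The median log2 ratio of -0.07 was -0.11 with a GC correction and between -0.090 and -0.031 with 1 file left out. Called V bins were 3 at 25 kb and 2 with CpGs of any file, and the 6 bins at adjusted p alone became 1 at 100 kb and 1 with the autosomal median as library size. The bin of J and C had log2 ratios of -0.24 at 25 kb and -0.20 at 100 kb, short of the threshold. With the body alone the mean ratio of both sexes moved from 0.935 to 0.891 in the middle set and from 0.944 to 0.925 in the orientation of Igkc.

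In the 200 bases before the start, B minus T over genes was -45.8 points, -48.4 without near-identical copies and -31.9 without the 20 members called with the prior that follows reads. Past the 3′ end it was -40.5, -44.2 at a coverage minimum of 10, -42.4 without near-identical copies and -31.4 without these 20. These alternatives were chosen after seeing the data.

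Some named segments that were not called changed direction. The log2 depth ratio of Igkv3-4 was -0.010 with the autosomal median, -0.00017 with total reads, -0.09 with CpGs of any file, -0.0021 with the GC correction and -0.012 without the sex term. With 2 kb to each side Igkv3-1 had -0.11 and Igkv5-45 -0.017 in depth, and Igkv2-137, Igkv3-2 and Igkv3-5 had 1.29, 1.57 and 1.79 points in methylation. With 1 file left out depth ran from -0.29 to 0.34 at Igkv3-4, -0.25 to 0.17 at Igkv3-5, -0.44 to 0.025 at Igkv1-136, -0.020 to 0.51 at Igkv1-135 and -0.19 to 0.30 at Igkv3-1, and methylation from -7.67 to 1.92 points at Igkv3-5 and -6.50 to 4.71 at Igkv3-2.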
